A study of Mus musculus with 2 samples.

Results

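Of the 27975 gene names with a gene spot on these arrays, 37 encode enzymes of glycolysis, of the pentose phosphate pathway and their closest regulators, and their transcripts were compared between K14-caSmad1 and wild-type mouse keratinocytes. A gene belonged if its name in the scanner files was one of these 37 names. They had 83 of the 43379 gene spots and 65 of the 41174 probes. Of the 37 genes, 35 were measured, through 46 probes. Pfkfb1 and Pgam2 were well above background on 0 arrays in either channel. Pkm2 is the older symbol of the pyruvate kinase gene that RefSeq lists as Pkm.

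The 2 groups were K14-caSmad1 mice, which overexpress Smad1, a transcription factor of BMP signalling, in a constitutively active form, and wild-type mice. All were FVB/NJ animals at day 20 after birth, and RNA came from primary epidermal keratinocytes. The name K14 stands for keratin 14, whose promoter is active in basal keratinocytes and the outer root sheath of the hair follicle. Each of 2 two-colour arrays carried K14-caSmad1 RNA in Cy5 and wild-type RNA in Cy3. The dyes were not swapped, so a dye effect on a probe and a difference between the groups cannot be told apart. The labels call the arrays biological replicates but name neither the animals nor their number.

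On these arrays 14412 and 15800 gene spots were well above background in the K14-caSmad1 channel, on replicates 1 and 2, and 15570 and 16144 in the wild-type channel. Over 12287 probes with a single spot, the difference between the arrays in log2 ratio had an SD of 0.0946, against 0.106 predicted from the noise between spots within an array. For the means of 92 repeated probes the SD was 0.0523, against 0.0336 predicted. The difference lay near spot noise for single-spot probes and above it for repeated probes. As no separate animals are named, the arrays were counted as 1 sample, and both values are printed throughout without an error between animals. Smad1 itself had log2 ratios of 0.28 and 0.26, K14-caSmad1 over wild type, and whether its probe reads the transgene was not tested. Over the 35 measured enzymes the arrays differed by a median of 0.03 and at most by 0.26 on the log2 scale.

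Glycolysis breaks glucose down to pyruvate in the cytosol and yields ATP and NADH. Lactate dehydrogenase then turns pyruvate into lactate, or pyruvate enters mitochondria, where the pyruvate dehydrogenase complex turns it into acetyl-CoA. The pentose phosphate pathway starts from glucose 6-phosphate. Its oxidative branch makes NADPH, which keratinocytes use for lipid synthesis and against oxidants, and its non-oxidative branch trades sugar phosphates between ribose 5-phosphate and glycolysis. Skin epidermis is known for making much lactate from glucose even where oxygen is present.

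Differences of 2-fold or more ran both ways within the pathway. Ldha and Pfkfb3 were at least 2-fold higher in K14-caSmad1 keratinocytes on both arrays, and Aldoc, Bpgm, G6pdx, Ldhb, Pfkfb4, Pgd and Tkt were at least 2-fold lower. The enzymes of the pentose phosphate pathway were mostly lower, while a run of lower-glycolytic enzymes from Tpi1 to Eno1 held several genes that were higher by less than 2-fold. Paralogs parted: Ldha against Ldhb, Pfkfb3 against Pfkfb4, Pfkp against Pfkl and Pfkm, and Eno1 against Eno2 and Eno3.

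These counts are 2 of 35 higher (5.71%) and 7 of 35 lower (20%). Over all 11748 genes measured, 4.09% were at least 2-fold higher on both arrays and 9.81% at least 2-fold lower. With limma's test of the mean log2 ratio against 0, at a Benjamini-Hochberg adjusted p of 0.05 over all genes, 10 members were higher and 21 lower, or 28.6% and 60%. The same test called 40.8% of all genes higher and 46.3% lower. The 21 include Eno2, Pdk2 and Pdk4, which were measured only through wild type, where they are high. Over the 32 members well above background in both channels, 10 were higher and 18 lower by limma, or 31.2% and 56.2%. With the arrays counted as 1 sample, its p-values measure how well the arrays repeated and hold no error between animals. For the 9 members at least 2-fold different its adjusted p lay between 1.82e-05 for Bpgm and 0.000172 for Tkt. Hk3, Pfkfb2, Gapdh and Pdk1 passed it in neither direction. The median log2 ratio of the members, K14-caSmad1 over wild type, was -0.35, beside -0.03 over all genes. Within 0.5 of 0 on that scale lay 12 of the 35 members (34.3%), and 59% of all genes. Without loess, with median centring, the median over all genes moved to 0.22 and that of the members to -0.04. Under that scaling the balance of the 2-fold counts turned. Then 5 members were at least 2-fold higher (14.3%) and 3 lower (8.57%), beside 9.45% and 6.9% of all genes. By limma 15 were higher (42.9%) and 17 lower (48.6%), beside 58.6% and 30.4% of all genes.

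**Figure D1:**
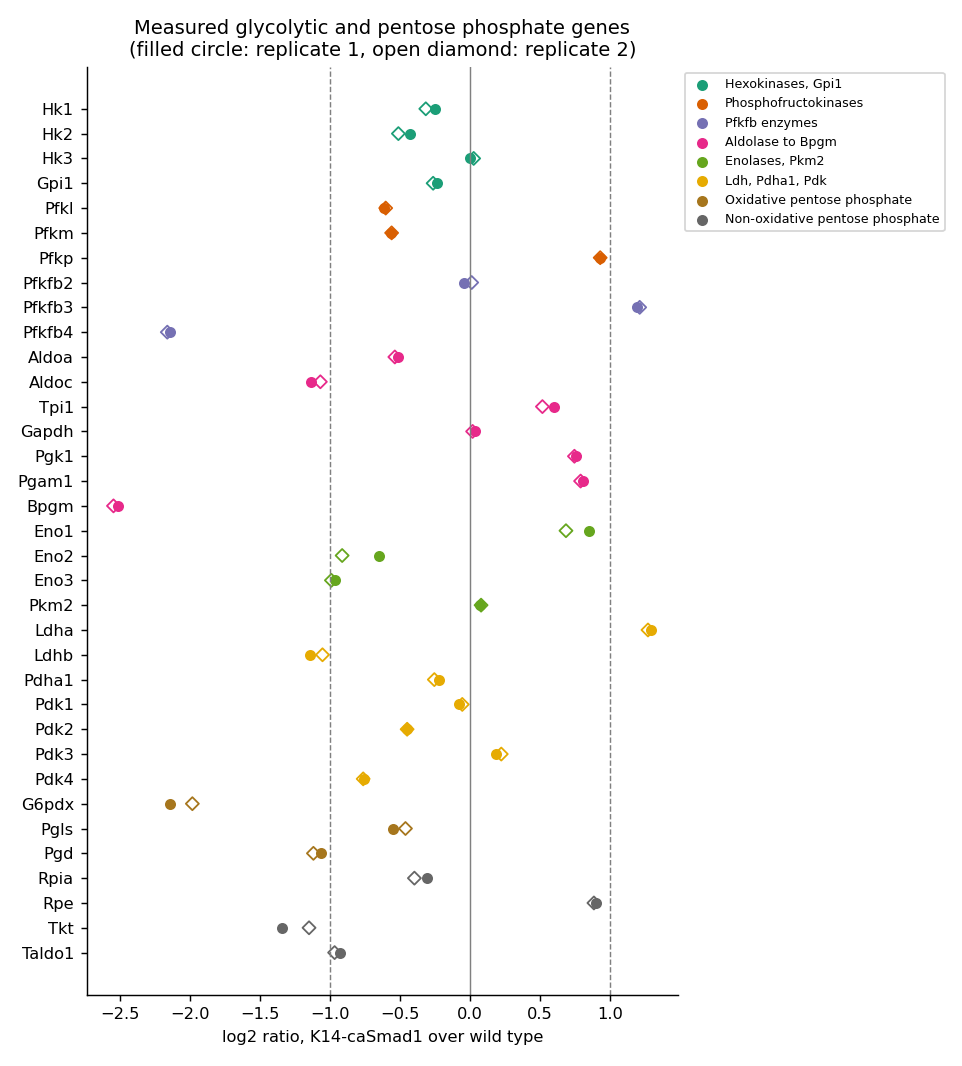
Log2 ratio of K14-caSmad1 over wild type (x axis) for the 35 measured enzymes, in pathway order from top to bottom and coloured by step; filled circles are replicate 1, open diamonds replicate 2, and dashed lines mark 2-fold. Ldha and Pfkfb3 lie beyond the upper line, and Bpgm, Pfkfb4 and G6pdx stand farthest to the left, all near or below -2.

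Promoters are shown for Ldha and Pfkfb3, the members at least 2-fold higher, and for Pfkfb4 and G6pdx, single-window members with log2 ratios near -2, so that the letters before their starts can be compared. From RefSeq, all 37 members had promoter windows, 57 in all, each the 250 bases before a transcription start on GRCm38.p6. Capitals mark ACGTG, or CACGT, its other strand. ACGTG is one form of the core that hypoxia-inducible factors bind. The other form, GCGTG, was not marked or counted. The E-box CACGTG, bound by Myc and Mondo-type factors, contains ACGTG on both strands, so each E-box counts under both motifs. The Ldha window is one of 2 for this gene, at chr7:46845554-46845803 on the plus strand. The Pfkfb3 window, one of 2, is at chr2:11502091-11502340 on the minus strand. Pfkfb4 had 1 window, at chr9:108991652-108991901 on the plus strand, and G6pdx had 1, at chrX:74428881-74429130 on the minus strand.
Ldha: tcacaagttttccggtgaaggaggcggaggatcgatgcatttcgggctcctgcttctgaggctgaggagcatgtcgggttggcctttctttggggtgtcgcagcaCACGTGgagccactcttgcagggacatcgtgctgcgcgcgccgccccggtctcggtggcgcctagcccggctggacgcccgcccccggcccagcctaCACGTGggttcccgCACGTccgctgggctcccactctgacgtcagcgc
Pfkfb3: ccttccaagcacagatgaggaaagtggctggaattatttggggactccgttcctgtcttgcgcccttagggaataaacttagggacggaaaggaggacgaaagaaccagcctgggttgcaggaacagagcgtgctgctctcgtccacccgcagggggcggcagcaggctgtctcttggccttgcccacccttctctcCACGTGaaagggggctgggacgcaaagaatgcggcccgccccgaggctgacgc
Pfkfb4: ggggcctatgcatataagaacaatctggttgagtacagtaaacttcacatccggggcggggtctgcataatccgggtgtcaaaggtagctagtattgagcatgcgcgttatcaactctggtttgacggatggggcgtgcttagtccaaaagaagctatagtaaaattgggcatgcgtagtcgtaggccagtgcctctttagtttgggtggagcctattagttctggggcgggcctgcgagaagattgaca
G6pdx: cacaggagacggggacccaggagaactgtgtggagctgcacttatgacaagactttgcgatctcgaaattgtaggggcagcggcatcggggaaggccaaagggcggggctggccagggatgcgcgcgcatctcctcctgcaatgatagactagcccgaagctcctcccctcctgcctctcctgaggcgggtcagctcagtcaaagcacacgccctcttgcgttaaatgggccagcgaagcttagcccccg

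On both strands, this Ldha window held ACGTG 5 times and CACGTG 2 times, and this Pfkfb3 window 2 and 1 times. The other Ldha window held neither, and the other Pfkfb3 window held ACGTG 1 time and CACGTG 0 times. Neither motif was found in the windows of Pfkfb4 and G6pdx. Both members that were at least 2-fold higher had ACGTG and CACGTG in a window, and 0 of the 7 that were at least 2-fold lower had either. This split does not extend to GCGTG. On one strand or the other, GCGTG lay in windows of Ldha and Pfkfb3. It also lay in those of the lower members Pfkfb4, G6pdx, Aldoc, Ldhb, Pgd and Tkt, but not Bpgm. Members with smaller differences followed the split by ACGTG and CACGTG only in part. Pgk1, Pgam1, Pkm2 and Pdk3, higher by limma, held ACGTG without CACGTG, and Tpi1, Eno1, Pfkp and Rpe, also higher, held neither. Pdk2 and Pfkm, lower by limma, held both motifs, and Aldoa and Hk2, also lower, held ACGTG. The other members lower by limma held neither. Among all 37 members 12 held ACGTG (32.4%) and 5 held CACGTG (13.5%), beside 18.5% and 6.86% of 27025 RefSeq genes with any window. Per window the shares were 28.1% of the members' 57 and 16.6% of all 32851 for ACGTG, and 8.77% and 6.02% for CACGTG. The GC-rich Smad motif GGCGCC was in a window of 9 members (24.3%), beside 10.8% of all genes. It was in 1 of the 2 higher and 2 of the 7 lower members. A match describes these letters in these windows only, and says nothing of binding.

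Hexokinases phosphorylate glucose and hold it in the cell, and Gpi1 turns glucose 6-phosphate into fructose 6-phosphate. No gene of this step reached 2-fold. Hk2, the inducible hexokinase bound to mitochondria, had normalized log2 intensities of 10.98 and 11.39 in K14-caSmad1 keratinocytes on replicates 1 and 2, against 11.41 and 11.90 in wild type. Its log2 ratios were -0.42 and -0.51, a 1.38-fold lower level. Hk1, the hexokinase found in most tissues, had log2 ratios of -0.25 and -0.31, and Gpi1, spotted 10 times, -0.24 and -0.26. Hk3, a hexokinase known from myeloid cells, read 0.00 and 0.03. Under median centring the log2 ratio of Gpi1 changed sign, to 0.01.

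Phosphofructokinase commits sugar to glycolysis, and its tetramers are built from platelet-type (Pfkp), liver-type (Pfkl) and muscle-type (Pfkm) subunits. The subunits differed in direction. Pfkp read 12.70 and 12.46 in K14-caSmad1 keratinocytes, against 11.77 and 11.53 in wild type, and was 1.91-fold higher with log2 ratios of 0.93 and 0.93. Pfkl stood at 9.66 and 9.66 in K14-caSmad1 cells and at 10.27 and 10.27 in wild-type cells, 1.52-fold lower. Pfkm was 1.47-fold lower, with log2 ratios of -0.56 and -0.56. The groups did not overlap for Pfkp or Pfkl, whereas the Pfkm levels did, since replicate 2 was brighter than replicate 1 in both channels. Here and below, overlap compares the channel levels of 2 arrays counted as 1 sample. It shows no spread between animals, and its share over all genes is not given. The log2 ratio of Pfkp exceeded that of Pfkl by 1.54 and 1.53, and by 1.40 to 1.87 over the 10 alternative ways of processing.

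Pfkfb enzymes make and remove fructose 2,6-bisphosphate, the strongest known activator of phosphofructokinase. Pfkfb3, the isoform with the highest kinase over phosphatase activity, read 11.54 and 11.65 in K14-caSmad1 keratinocytes, against 10.35 and 10.44 in wild type. It was 2.3-fold higher, with log2 ratios of 1.19 and 1.21. Pfkfb4 read 10.93 and 10.82 in K14-caSmad1 cells, against 13.07 and 12.98 in wild type.

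Pfkfb4 was thus 4.44-fold lower, with log2 ratios of -2.14 and -2.16, and neither gene had overlapping groups. The ratio of Pfkfb3 exceeded that of Pfkfb4 by 3.34 and 3.37 log2 units, and by 2.96 to 3.804 over the alternatives. This was the widest difference among the 10 pairs of members set side by side. Both genes are known as responsive to low oxygen. Pfkfb2 gave no single answer: its brightest probe read -0.04 and 0.01, and another measured probe -1.39 and -1.54. On that other probe the K14-caSmad1 channel was not well above background, which gives at least 1.41-fold lower.

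**Figure D2:**
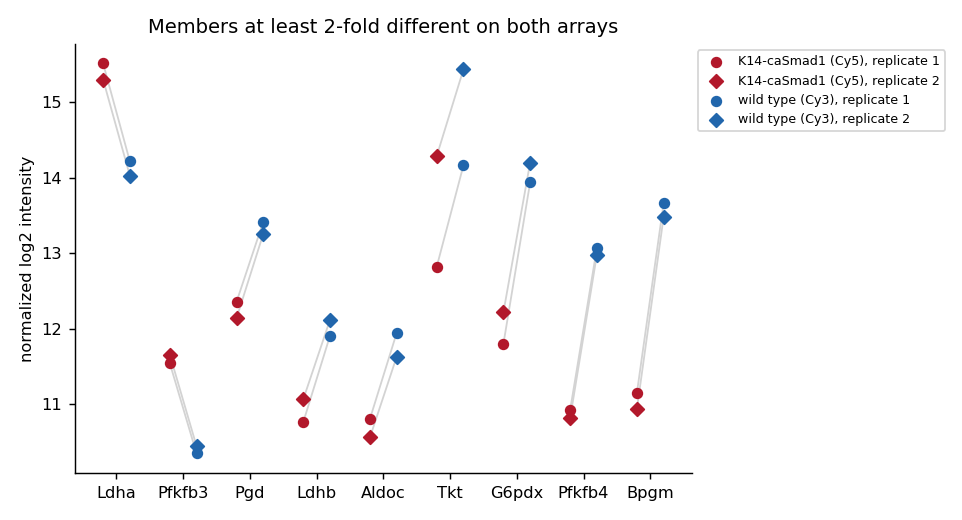
Normalized log2 intensity (y axis) of the 9 members at least 2-fold different on both arrays, K14-caSmad1 in red to the left and wild type in blue to the right of each gene, with grey lines joining the channels of an array; circles are replicate 1 and diamonds replicate 2. The lines slope down for Ldha and Pfkfb3 and up for the other 7 genes, and the Tkt lines lie apart because both channels were brighter on replicate 2.

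Aldolase splits fructose 1,6-bisphosphate. Aldoa, the form of muscle and most tissues, read 16.52 and 16.34 in K14-caSmad1 keratinocytes, against 17.03 and 16.88 in wild type. It was 1.44-fold lower on its brightest probe, with log2 ratios of -0.51 and -0.54, and its other probe read -0.54 and -0.53. Aldoc, the brain-type aldolase, read 10.81 and 10.56 in K14-caSmad1 cells, against 11.94 and 11.63 in wild type. The groups did not overlap, and Aldoc was 2.15-fold lower.

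Of the 7 measured genes from aldolase to Bpgm, 3 were higher by limma (42.9%) and 3 lower (42.9%). These shares were near those of all genes, 40.8% and 46.3%. The 3 higher genes were below 2-fold. Tpi1, which interconverts the triose phosphates, had log2 ratios of 0.60 and 0.52. Pgk1, the first ATP-yielding step, read 14.61 and 14.52 in K14-caSmad1 keratinocytes, against 13.86 and 13.78 in wild type, over 10 spots an array. Its log2 ratios of 0.75 and 0.75 were close to those of its second probe, 0.69 and 0.69. Pgam1, the phosphoglycerate mutase of most tissues, read 15.51 and 15.23 in K14-caSmad1 cells and 14.70 and 14.44 in wild-type cells. It was 1.74-fold higher without overlap. Between them in the pathway, Gapdh, often used as a reference gene, had log2 ratios of 0.04 and 0.02.

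Bpgm, which makes 2,3-bisphosphoglycerate and is best known from red blood cells, gave the lowest ratio of the members by brightest probe. With probes averaged it was at -1.92, above Pfkfb4 at -2.15 and G6pdx at -2.06. Bpgm read 11.15 and 10.93 in K14-caSmad1 keratinocytes, against 13.66 and 13.48 in wild type. The difference was 5.77-fold, with log2 ratios of -2.51 and -2.54 on the brightest probe. A second probe read -1.14 and -1.51, with the K14-caSmad1 channel not well above background, which gives at least 1.65-fold lower. Of 11 erythroid markers, 4 were measured and all 4 were lower by limma, which called 46.3% of all genes lower. Their summed linear intensity was 3355 and 3321 in K14-caSmad1 cells, against 10567 and 10618 in wild-type cells. Car2, the largest term of the wild-type sum, had a mean log2 ratio of -2.49, Hba-a1 -1.39 and Slc4a1 -0.68. Alas2, the red cell enzyme of haem synthesis, was not well above background in K14-caSmad1 cells, and Hbb-b1, Epb42, Rhag and Klf1 were among those on the array but not measured. Their part in the Bpgm result was not tested. In such bulk RNA, fewer cells of a type and less RNA per cell cannot be told apart.

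Enolase makes phosphoenolpyruvate. Eno1, the form of most tissues, read 10.46 and 10.14 in K14-caSmad1 keratinocytes, against 9.60 and 9.46 in wild type, 1.7-fold higher. Eno3, the muscle form, read 9.03 and 8.90 in K14-caSmad1 cells, against 9.999 and 9.89 in wild type, and lay just short of 2-fold on both arrays with log2 ratios of -0.96 and -0.99. Eno2, the neuronal form, was not well above background in the K14-caSmad1 channel and was at least 1.40-fold lower on its brightest probe. A second measured probe, also not well above background there, gave at least 1.15-fold lower. The log2 ratio of Eno1 exceeded that of Eno3 by 1.82 and 1.67, and by 1.08 to 2.86 over the alternatives. Pkm2, the last ATP-yielding step, read 13.16 and 12.98 in K14-caSmad1 cells, against 13.09 and 12.90 in wild type. Its log2 ratios were 0.07 and 0.08, with an adjusted p of 0.0437 in limma. Of 12 skeletal muscle markers only Mylpf and Tnni2 were measured, at log2 ratios of -0.61 and -0.40. Their summed intensity was 1834 and 1742 in K14-caSmad1 cells, against 2489 and 2472 in wild-type cells, and their part in the Eno3 and Pfkm results was not tested.

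Lactate dehydrogenase is a tetramer of the muscle-type subunit from Ldha, which is tied to lactate production, and the heart-type subunit from Ldhb. Ldha had 15.52 and 15.30 in K14-caSmad1 keratinocytes, against 14.22 and 14.03 in wild type. It was 2.44-fold higher on its brightest probe, with log2 ratios of 1.30 and 1.27. Ldhb had 10.76 and 11.06 in K14-caSmad1 cells, against 11.90 and 12.12 in wild type. It was 2.14-fold lower, with log2 ratios of -1.14 and -1.05. Neither gene had overlapping groups, and their ratios differed by 2.44 and 2.32 log2 units, or 1.98 to 2.45 over the alternatives.

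The size of the Ldha difference depended on the probe. The probe at mm9 chr7:54110889-54110948, plus strand, gave the values above. The other measured probe, which the files place at mm9 chr7:54109426-54110355, a span wider than the probe, read 0.41 and 0.56 on the log2 scale, higher in K14-caSmad1 but short of 2-fold. For Pdha1, the catalytic subunit of pyruvate dehydrogenase, the probes even lay on both sides of 0. That at mm9 chrX:156561603-156561662, minus strand, gave -0.22 and -0.25, and that at mm9 chrX:156560665-156560724, minus strand, 0.57 and 0.59. The first 30 of the 60 bases of each probe show that different stretches of the transcripts were read.
Ldha, brightest probe: tatatgtgtctgtagtgtgcattgcaatat
Ldha, other probe: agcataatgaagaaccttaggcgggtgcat
Pdha1, brightest probe: tgtgctctcaacttggacaggaaataccca
Pdha1, other probe: gtgtagaggtgtggatctttaaacaagagt

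Pyruvate dehydrogenase kinases switch that complex off. None reached 2-fold. Pdk4, known to rise with fasting and fatty acid use, read 8.76 and 9.14 in K14-caSmad1 keratinocytes, against 9.51 and 9.90 in wild type, 1.69-fold lower, and was well above background on 1 of the 2 arrays in K14-caSmad1. Pdk2 was not well above background in K14-caSmad1 and was at least 1.36-fold lower. Pdk1, a known hypoxia target, had log2 ratios of -0.08 and -0.05. The probes of Pdk3 disagreed, with 0.19 and 0.22 on the brightest and -0.45 and -0.49 on the other.

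**Figure D3:**
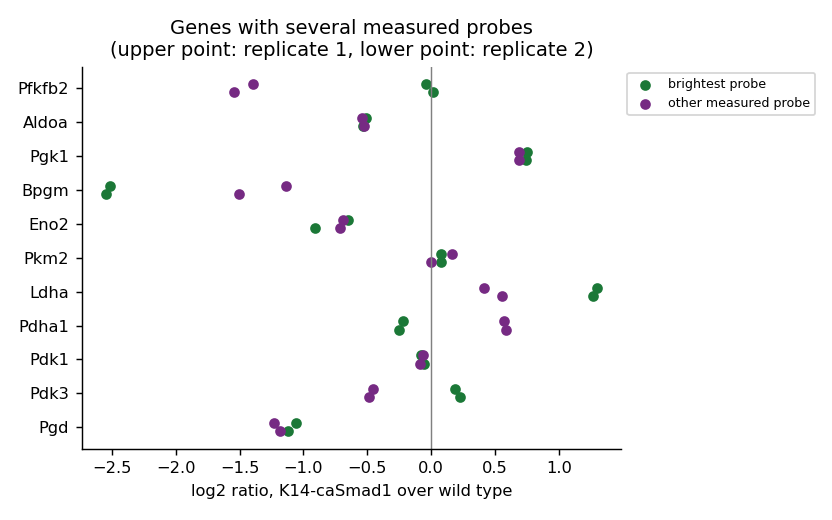
Log2 ratio of K14-caSmad1 over wild type (x axis) for each measured probe of the 11 members with several; green is the brightest probe, which stands for the gene, purple the others, with replicate 1 above replicate 2. The probes of Pgd, Pgk1 and Aldoa lie together, those of Ldha and Bpgm keep their direction but differ in size, and those of Pdha1 and Pdk3 lie on both sides of 0.

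In the oxidative branch of the pentose phosphate pathway all 3 enzymes were lower by limma, which called 46.3% of all genes lower, and 2 were at least 2-fold lower. G6pdx, glucose 6-phosphate dehydrogenase, which sets the flow into the pathway and makes the first NADPH, read 11.80 and 12.22 in K14-caSmad1 keratinocytes, against 13.94 and 14.20 in wild type. It was 4.17-fold lower, with log2 ratios of -2.14 and -1.98. Pgd, which makes the second NADPH, read 12.36 and 12.14 in K14-caSmad1 cells, against 13.42 and 13.26 in wild type.

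Pgd was 2.13-fold lower on that probe, and its other probe gave -1.23 and -1.18 on the log2 scale. Pgls, the lactonase between them, had log2 ratios of -0.55 and -0.46. The groups of G6pdx and Pgd did not overlap. For Pgls the levels overlapped between channels, since both were brighter on replicate 2.

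In the non-oxidative branch 3 of 4 enzymes (75%) were lower by limma, which called 46.3% of all genes lower. Tkt, transketolase, read 12.82 and 14.29 in K14-caSmad1 keratinocytes, against 14.16 and 15.44 in wild type. Its levels therefore overlapped across arrays, while within each array K14-caSmad1 was lower, with log2 ratios of -1.34 and -1.15. Taldo1, transaldolase, read 14.37 and 14.21 in K14-caSmad1 cells, against 15.30 and 15.18 in wild type, 1.93-fold lower and short of the 2-fold line.

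Rpia, which makes ribose 5-phosphate, had log2 ratios of -0.31 and -0.40. Rpe, the epimerase beside it, went the other way, with 10.47 and 10.27 in K14-caSmad1 keratinocytes, against 9.57 and 9.39 in wild type. Its log2 ratios were 0.90 and 0.89. Over all 7 pentose phosphate genes the median log2 ratio was -0.95, and 6 of the 7 (85.7%) were lower by limma, beside 46.3% of all genes. Over the 20 measured genes of the glycolytic steps themselves the median was -0.27. By limma 7 were higher and 11 lower, or 35% and 55%, near the 40.8% and 46.3% of all genes.

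**Figure D4:**
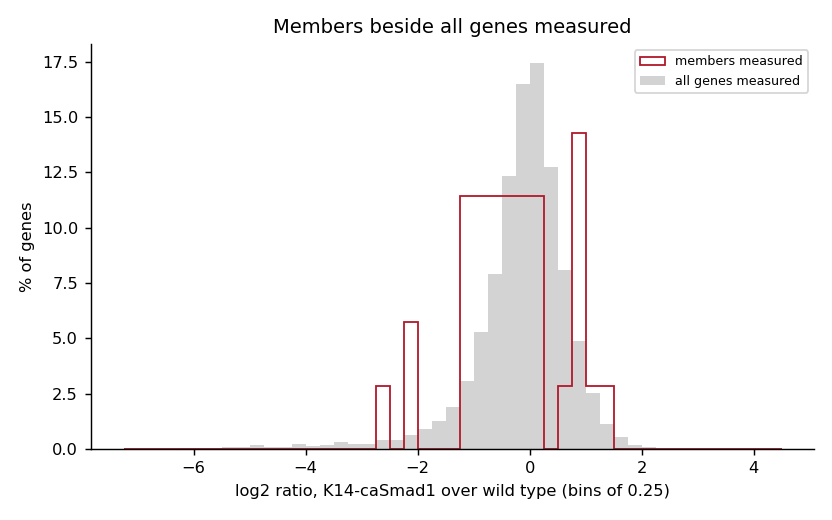
Share of genes (y axis, % of each set) by log2 ratio of K14-caSmad1 over wild type (x axis, bins of 0.25), with the 35 measured members as a red outline and all 11748 genes measured in grey. The members spread on both sides, with 34.3% of them within 0.5 of 0 and 59% of all genes there.

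Beside the members stood 68 other genes of carbohydrate and pyruvate metabolism, of which 46 were measured. At least 2-fold on both arrays, 1 was higher and 5 lower, or 2.17% and 10.9%, beside 4.09% and 9.81% of all genes. By limma 12 were higher and 26 lower, or 26.1% and 56.5%, beside 40.8% and 46.3% of all genes. Their median log2 ratio was -0.17. Slc16a1, the monocarboxylate transporter that carries lactate and pyruvate across the cell membrane, read 13.10 and 12.78 in K14-caSmad1 keratinocytes, against 11.26 and 10.99 in wild type. It was 3.53-fold higher, and its second probe had a mean log2 ratio of 1.67. Slc16a3, a lactate exporter, had 0.49 and 0.48.

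The glucose transporter Slc2a1 was lower by limma, at -0.49 and -0.52. Fbp1, which runs the phosphofructokinase step backwards in gluconeogenesis, read 11.08 and 10.999 in K14-caSmad1 cells, against 15.54 and 15.39 in wild type, and was 21.5-fold lower. The other 4 at least 2-fold lower genes were Pgm2, a phosphoglucomutase, at a mean log2 ratio of -1.60, the mitochondrial glycerol phosphate dehydrogenase Gpd2 at -1.40, the inositol phosphate phosphatase Minpp1 at -1.31 and the glucose 6-phosphatase G6pc3 at -1.09. A second probe read 0.19 for Gpd2 and -0.02 for Minpp1. Of the rest, Galk1 was at -1.01 and Dera at -0.89, and on the other side Dlat was at 0.83 and Gbe1 at 0.81. Slc16a7 and Tkfc, not well above background in K14-caSmad1, were at least 1.28-fold and 1.72-fold lower.

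Of 24 genes of the hypoxia response and known regulators of glycolytic genes, 20 were measured. At least 2-fold on both arrays, 3 were higher and 0 lower, or 15% and 0%, beside 4.09% and 9.81% of all genes. By limma 8 were higher and 8 lower, 40% each, near the shares of all genes (40.8% and 46.3%), and the median log2 ratio was 0.02. Hif1a, the oxygen-regulated subunit of hypoxia-inducible factor 1, read 11.69 and 11.53 in K14-caSmad1 keratinocytes, against 9.82 and 9.67 in wild type, 3.64-fold higher. Bnip3, a mitophagy receptor and known target of that factor, was 2.57-fold higher, with log2 ratios of 1.36 and 1.36. Nfe2l2, the antioxidant regulator for which G6pdx, Pgd, Tkt and Taldo1 are known targets, was 2.43-fold higher on its brightest probe, with 0.46 on a second probe.

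The other 17 measured genes of this list did not reach 2-fold on both arrays. Bnip3l had log2 ratios of -1.002 and -0.98, short of 2-fold on replicate 2, and Vegfa -0.56 and -0.57, with a further Vegfa probe at -2.49 that was well above background on 1 of the 2 arrays in K14-caSmad1. Egln3 was at 0.53 and Egln2 at -0.44. Array signals are transcript levels, and hypoxia-inducible factor and the product of Nfe2l2 are known to be controlled mainly as proteins.

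Markers of cell types differed between the groups as well. All 9 keratinocyte markers were measured and 6 were at least 2-fold higher (66.7%), beside 4.09% of all genes. Sfn went the other way, lower by limma at a mean log2 ratio of -0.74, and Krt10 read 0.02. The summed linear intensity of the 9 was 683450 and 729180 in K14-caSmad1 keratinocytes, against 380150 and 353850 in wild type. Of 14 hair shaft and matrix markers 12 were measured and all 12 were at least 2-fold lower, beside 9.81% of all genes. Their sum was 73559 and 73501 in K14-caSmad1 cells, against 1602200 and 1706700 in wild-type cells, and their median log2 ratio was -4.39. Krt83 was on the array but not measured, and no gene spot was named Krt81. The 1 measured adipocyte marker of 6 was Fabp4, at -4.67.

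Fibroblast markers were measured for 5 of 7, with 4 of the 5 not well above background in K14-caSmad1, so that they passed only through wild type. The remaining marker, Fbln1, was well above background in both channels and went the other way, at a mean log2 ratio of 0.29. It was higher by limma, which called 40.8% of all genes higher. The sum of the 5 was 2402 and 2340 in K14-caSmad1 cells, against 4687 and 4550 in wild-type cells. Melanocyte markers were measured for 5 of 8, with 3 of the 5 not well above background in K14-caSmad1, and with a sum of 3217 and 2765 in K14-caSmad1 cells, against 6669 and 6298 in wild type. Of 8 endothelial markers 3 were measured, none of them well above background in K14-caSmad1, with a sum of 1220 and 1119 there, against 2050 and 1942 in wild type. Of 7 neuronal and glial markers 3 were measured, among them Tubb3 at -2.51, well above background on 1 of the 2 arrays in K14-caSmad1, with a sum of 1651 and 1542 in K14-caSmad1 cells, against 4148 and 3729 in wild type. Myeloid markers were measured for 7 of 10 and ran both ways, with Adgre1 at least 2-fold higher at 1.45, Ptprc at 0.90 and Cd68 not well above background in K14-caSmad1 and at least 2.03-fold lower. They had a sum of 13140 and 13422 in K14-caSmad1 cells, against 11163 and 11145 in wild type. The part of these cell types in the results on G6pdx, Pgd, Tkt, Pfkfb4, Aldoc, Ldhb, Ldha and Pfkfb3 was not tested.

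**Figure D5:**
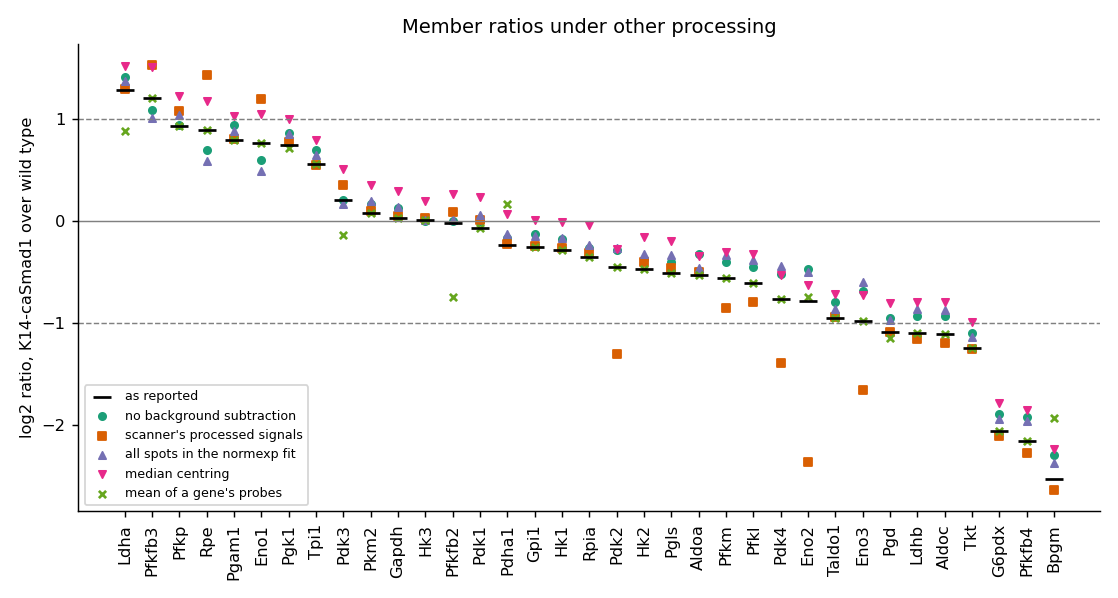
Log2 ratio of K14-caSmad1 over wild type (y axis) of the 35 measured members, ordered by the reported value (black bars), with the value under 5 other ways of processing as coloured symbols; dashed lines mark 2-fold. Bpgm, Pfkfb4 and G6pdx stay below -1 under all 5, and Eno2, Pdk2, Eno3 and Pdk4 fall farther with the scanner's processed signals.

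Across 10 alternative ways of processing or leaving out an array, Bpgm, Pfkfb4 and G6pdx kept their 2-fold difference in 10. Ldha and Pfkfb3 kept it in 9, Tkt in 8, and Aldoc, Ldhb and Pgd in 7. Not all 10 could undo a call. Leaving out an array cannot, since a call needs both arrays. Changes of the detection filter left the calls of these members as they were, and the deposited ratios repeat the processed signals. Pfkfb3, Tkt and Aldoc each rest on 1 measured probe. Their further probes on the array were well above background in neither channel, so averaging probes could not change these 3 calls. Ldha fell short when its probes were averaged, and Pfkfb3 when all spots entered the background fit. Tkt fell short without background subtraction and with median centring, and Aldoc, Ldhb and Pgd did so under these and when all spots entered the background fit. RefSeq lists named pseudogenes or near copies for 7 members, Aldoa, Gapdh, Pgk1, Pgam1, Ldha, Ldhb and G6pdx. Probes for these may also read the copies, which was not tested. In K14-caSmad1 cells 32 of the 35 measured members were well above background on both arrays, and in wild-type cells all 35. Over these 32 genes the same 2 and 7 were at least 2-fold higher and lower, and the median log2 ratio was -0.27.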

How the data were processed

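RNA was amplified in 1 round and labelled with both dyes, per the labels' protocols. The authors' scanner files hold mean and local background signal intensities per spot and channel without normalization, written by Agilent Feature Extraction 10.5.1.1 with mm9 probe positions, per the file headers. They also hold intensities processed by that software. The table deposited for the whole series holds log10 ratios of Cy5 over Cy3. These equalled the log10 ratio of the processed signals within 0.00397 (slope 1), so scale, direction and lack of further centring are known, and its column medians were 0.023 and -0.01.

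Background was corrected with limma 3.58.1 (R 4.3.3), by normexp (offset 50) on the mean signals and the medians of local background. The 36 spots of replicate 1 on a non-uniform local background were left out of that fit. Ratios were normalized by loess (span 0.3) within each array, with control spots at weight 0. Outlier spots were left out, no gene spot was saturated (0), and no member spot was an outlier (0). Repeated spots were averaged. A probe counted as measured when well above background on both arrays in either channel, and the brightest measured probe stood for a gene. Levels are log2 intensities after loess and Aquantile. Levels of different probes are not compared. Where a channel was not well above background on both arrays, "at least N-fold" sets the bright level against the higher of the dim signal and the lowest signal well above background, averaged over arrays. It is open to dye bias.

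The main call was a log2 ratio of at least 1, or at most -1, on both arrays. limma's lmFit and eBayes with Benjamini-Hochberg adjustment at 0.05 ran over all genes measured. The steps were also run on simulated arrays with few changed probes and independent noise between arrays. That setting differs from these data, so it does not bear on the calls made here. The 2 arrays limit the precision. Array names were updated through RefSeq's gene table: 24844 probes matched by accession, 6045 by symbol, 1810 by synonym, and 8475 kept the file's name. The members and lists were chosen with earlier results of these data known. All members are named, with the genes of both pathway lists that differed at least 2-fold on both arrays and up to 4 of the rest by size. Slc2a1, Slc16a3, Dlat, Gbe1 and the extra probes were named after their values were seen. No genome of the probes' build was used, so exons and UTRs of probe positions are not given here.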

Additional observations from a re-analysis of the deposited data

How the results depend on the processing

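The 10 alternatives left the direction of the 9 members called at 2-fold unchanged, and the counts moved. At least 2-fold higher were 5 members with the scanner's processed signals, with the deposited log10 ratios and with median centring, and 1 each when all spots entered the normexp fit and when probes were averaged per gene, against 2 as reported. At least 2-fold lower were 3 without background subtraction and with median centring, 11 with the processed signals and with the deposited ratios, and 4 once all spots entered the normexp fit, against 7. By limma 9 were lower with all spots in that fit (25.7%), against 21 (60%), and over all genes the share fell to 14.3%, against 46.3%. The members' median log2 ratio, -0.35 as reported, was -0.26 without background subtraction, -0.23 with all spots, -0.041 with median centring, -0.27 with both channels above background and -0.45 with the mean of probes. The cause of these shifts was not tested, except that the mean of probes draws on further probes. Leaving out an array gave 2 higher and 7 lower in both cases, with medians of -0.40 to -0.31. It could not undo a call made on both arrays. Over all genes, 480 were higher and 1153 lower at 2-fold, 1110 and 811 with median centring, 1256 and 1875 with the processed signals, 303 and 473 once all spots entered the normexp fit, and 423 and 767 without background subtraction. Median centring changed the sign of 4 members, Gpi1, Pfkfb2, Pdha1 and Pdk1. Each array's ratio sets both groups within 1 array, so every test was paired by array. The design has no dye swap and no error between animals, and weak probes are limited by signal over background: negative control spots had an SD of 52.3 and 35 in Cy5 and 11.2 and 11.2 in Cy3.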
